A study of Mus musculus with 7 samples.

Results

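Type I interferon-stimulated genes are the genes that cells switch on when interferon-α or interferon-β binds the receptor IFNAR. The 38 genes described here were taken by symbol from a list of classical members, among them the Ifit, Oas, Mx and Isg15 genes. All 38 stood in the expression table of 28233 genes, and all 38 were among the 14954 genes that were tested because their mean over the tumours was at least 1 TPM (a relative transcript level, scaled for transcript length). RNA came from 7 whole tumours of B16mhgp100, a mouse B16 melanoma line, implanted subcutaneously in C57BL/6 mice. The cells of 4 tumours (Cr1l 1 to Cr1l 4) carried a Cr1l over-expression construct, and those of 3 tumours (Vec 5, Vec 6 and Vec 7) carried the vector. Cr1l encodes Crry, a membrane protein that inhibits complement. Treatment was the same in both groups: all mice had an anti-PD1 antibody, 200 µg a dose, started at day 10, given 2 times a week for 4 doses, and the tumours were collected 1 day later. No mice without the antibody were among the samples, and the labels do not say how many clones or animals stand behind the tumours beyond numbering them 1 to 7, so p-values measure the spread between these tumours. The titles of Vec 6 and Vec 7 hold a further number that the labels do not explain.

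Binding of type I interferon to IFNAR activates the kinases Jak1 and Tyk2, which phosphorylate Stat2, among others. Stat2 and Irf9 are subunits of ISGF3, the factor that binds the interferon-stimulated response element (ISRE) in front of the target genes. The products cut, trap or sense viral RNA, conjugate the ubiquitin-like protein Isg15, or restrain the signal itself, as Usp18 does. In tumours, the same genes are switched on by interferon from immune cells and by nucleic acids sensed inside the cancer cells, and interferon-γ, which works through the GAS element, raises many of them too.

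RefSeq windows (GRCm38.p6, an older build than the mm39 of the values) of 250 bases before the start site were held for 27 of the 38 members. The ISRE was searched as a pair of GAAA half-sites with 2 free bases between them, on both strands, and 11 of the 27 members (40.7%) held it, against 936 of 27025 genes with a window (3.46%). GAS was searched as TTCNNNGAA, which reads alike on both strands, and 6 of the 27 members (22.2%) held it, against 8.13% of genes. In 1 member, the matches of the 2 motifs overlapped. Mx1, Mx2, Oas1b, Oas2, Usp18, Dhx58, Rtp4, Zbp1, Parp9, Parp14 and Tor3a had no window. A match is a description of letters and no match says only that these letters are not in the window. The windows of 6 members whose levels are described below are given 5′ to 3′ on the strand of the gene, with the ISRE matches in capitals. Ifit3 lies at chr19:34583279-34583528 (plus strand), Ifit3b at chr19:34607707-34607956 (plus strand), Ifit1 at chr19:34640639-34640888 (plus strand), Isg15 at chr4:156200819-156201068 (minus strand), Oas1a at chr5:120907526-120907775 (minus strand) and Bst2 at chr8:71537473-71537722 (minus strand).
Ifit3: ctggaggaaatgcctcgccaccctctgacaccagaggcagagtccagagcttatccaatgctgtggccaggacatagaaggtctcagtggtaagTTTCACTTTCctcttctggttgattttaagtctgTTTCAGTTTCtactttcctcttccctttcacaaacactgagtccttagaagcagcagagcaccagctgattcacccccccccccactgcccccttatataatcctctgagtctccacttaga
Ifit3b: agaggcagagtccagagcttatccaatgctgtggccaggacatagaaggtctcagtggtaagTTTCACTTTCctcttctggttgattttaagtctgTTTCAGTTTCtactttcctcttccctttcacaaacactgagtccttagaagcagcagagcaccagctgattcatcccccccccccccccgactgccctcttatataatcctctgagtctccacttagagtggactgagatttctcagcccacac
Ifit1: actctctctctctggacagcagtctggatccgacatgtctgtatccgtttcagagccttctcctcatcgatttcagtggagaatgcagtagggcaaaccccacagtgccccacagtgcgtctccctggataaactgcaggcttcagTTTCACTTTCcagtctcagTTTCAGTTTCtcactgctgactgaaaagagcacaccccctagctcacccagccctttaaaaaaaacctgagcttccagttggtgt
Isg15: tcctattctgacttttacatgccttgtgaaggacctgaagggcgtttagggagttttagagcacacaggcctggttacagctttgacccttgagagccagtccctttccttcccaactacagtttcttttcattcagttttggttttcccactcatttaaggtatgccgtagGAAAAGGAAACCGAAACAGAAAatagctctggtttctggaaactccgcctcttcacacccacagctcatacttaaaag
Oas1a: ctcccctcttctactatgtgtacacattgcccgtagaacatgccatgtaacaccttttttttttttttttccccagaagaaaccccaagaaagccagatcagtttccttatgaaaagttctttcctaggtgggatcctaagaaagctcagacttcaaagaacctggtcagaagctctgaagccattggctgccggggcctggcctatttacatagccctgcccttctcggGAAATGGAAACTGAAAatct
Bst2: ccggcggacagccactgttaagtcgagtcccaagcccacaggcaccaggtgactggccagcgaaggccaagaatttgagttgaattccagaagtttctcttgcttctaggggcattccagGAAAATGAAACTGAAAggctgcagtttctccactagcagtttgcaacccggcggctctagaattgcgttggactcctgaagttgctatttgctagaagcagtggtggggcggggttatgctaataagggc
Ifit3, Ifit3b and Ifit1 each held 2 separate matches, and the letters of those matches are the same in all 3 windows. In Ifit3 the matches began 156 and 122 bases before the start, in Ifit3b 188 and 154 bases before it, and in Ifit1 104 and 85 bases before it. Aligned with each other, the windows of Ifit3 and Ifit3b paired at 218 positions, of which 217 were identical, and the other 64 columns were gaps. Isg15 held 3 overlapping matches from 78 to 66 bases before its start, Oas1a 2 overlapping matches at 20 and 14 bases, and Bst2 2 at 130 and 124 bases.

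Cr1l itself, measured first as a check of the labels, stood at 76.4, 78.6, 77.9 and 83.6 TPM in Cr1l 1 to 4, against 52.4, 46.3 and 54.9 TPM in Vec 5 to 7. The groups did not overlap, and the difference was 0.62 ± 0.11 (SE) on the log2(TPM + 1) scale, with an adjusted p of 0.119 (limma, Benjamini-Hochberg over all 14954 genes). The authors' deposited DESeq2 table called it higher, by 0.57 log2 units with an adjusted p of 0.00636. The direction of that comparison was read partly from Cr1l itself, so this sign is no further check of the labels. Melanocyte markers were abundant in every tumour, and the tumours differed in other cells. The summed level of 16 macrophage and monocyte markers was 626, 1054, 6119 and 5143 TPM in Cr1l 1 to 4, against 1666, 876 and 523 TPM in Vec 5 to 7. Fibroblast markers (9 genes) summed to 744, 1128, 6117 and 4884 TPM in Cr1l 1 to 4, against 1194, 466 and 151 TPM in Vec 5 to 7. Cr1l 3 and Cr1l 4 thus stood apart from the other 5 tumours in both lists. Melanocyte markers (10 genes) ran the other way, with 22925, 21254, 10313 and 11833 TPM in Cr1l 1 to 4, against 21732, 14963 and 23070.3 TPM in Vec 5 to 7. Means were higher in Cr1l tumours for 15 of the 16 macrophage, 9 of the 9 fibroblast and 2 of the 10 melanocyte markers. T-cell markers (10 genes) summed to between 18.3 and 236 TPM in Cr1l tumours, against between 22.7 and 48.3 TPM in Vec tumours, and B-cell and plasma-cell markers (7 genes) to between 76.7 and 574 TPM in Cr1l tumours, against between 6.62 and 16.7 TPM in Vec tumours. Dendritic (9 genes), neutrophil (8), NK (7) and endothelial (7) markers had overlapping sums. Dendritic, neutrophil and NK sums were also highest in Cr1l 3 (271, 205 and 68.4 TPM) and Cr1l 4 (166, 85.5 and 47.2 TPM). In Vec tumours they reached at most 83.1, 34.2 and 19.4 TPM. The mean was higher in Cr1l tumours for 9 of the 9 dendritic, 8 of the 8 neutrophil, 7 of the 7 NK and 6 of the 7 endothelial markers. Cd209a, Retnlg, Ly6g, Ncr1, Ms4a1 and Mzb1 were listed at 0 in some tumour. Globin made up between 0.0106% and 0.0390% of all TPM in the Cr1l tumours, against 0.0417% in Vec 5, 4.14% in Vec 6 and 0.973% in Vec 7. TPM keeps no read number, and the depth per tumour is unknown.

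**Figure D1:**
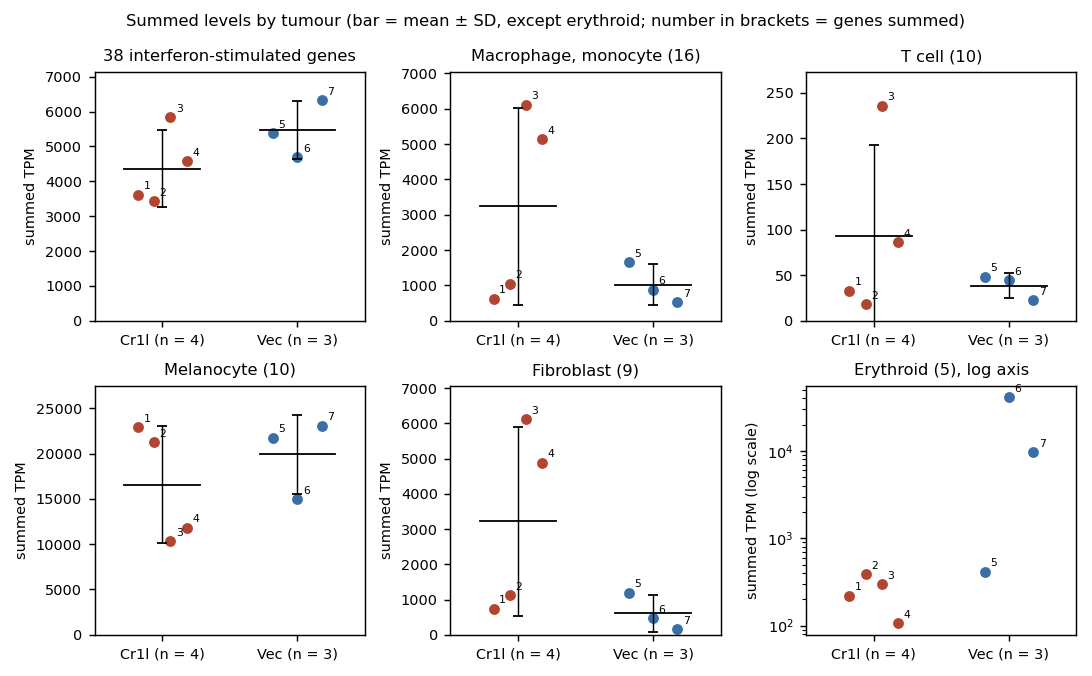
Summed TPM per tumour of the 38 interferon-stimulated genes and of 5 marker lists, with Cr1l tumours on the left and Vec tumours on the right of each panel; points are tumours with their numbers, bars are the mean ± SD, and the erythroid panel has a log axis and no bars. Macrophage and fibroblast markers are high in Cr1l 3 and Cr1l 4 and low in Cr1l 1 and Cr1l 2, while the sum of the 38 genes has overlapping groups.

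The 38 genes did not move as a block between Cr1l and Vec tumours. Of the members, 24 were lower and 14 higher on average in Cr1l tumours, and their median difference (Cr1l minus Vec, log2(TPM + 1)) was -0.15. Over all 14954 tested genes, 6673 were lower and 8281 higher, with a median of 0.05. No member passed limma after adjustment over all genes; the smallest adjusted p was 0.132, for Ifit3. Among all tested genes 2 passed (0.0134%), the clock gene Per1 and the predicted gene Gm56655, named after their values were seen. At an unadjusted p under 0.05, 10 members were lower and 2 higher, where 6.07% and 9.49% of all tested genes were. Without overlap between groups, 6 members were lower (15.8%, against 6.67% of all tested genes) and 2 were higher (5.26%, against 9.29%). The lower count was 12 without Cr1l 3 (8.89% of all tested genes) and 12 without Vec 6 (12.1%), and the higher count was 4 without Vec 5 (18.1%) and 4 without Vec 7 (14.1%). The authors' deposited DESeq2 table, at an adjusted p under 0.05, called Ifit3, Mx2 and Usp18 lower and Oas2 higher, where 2.27% of its genes were called lower and 4.74% higher. The signs were the same in the authors' deposited table and in limma for 36 of the 38 members. In a whole tumour, fewer cells that make a transcript and less of it per cell cannot be told apart.

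**Figure D2:**
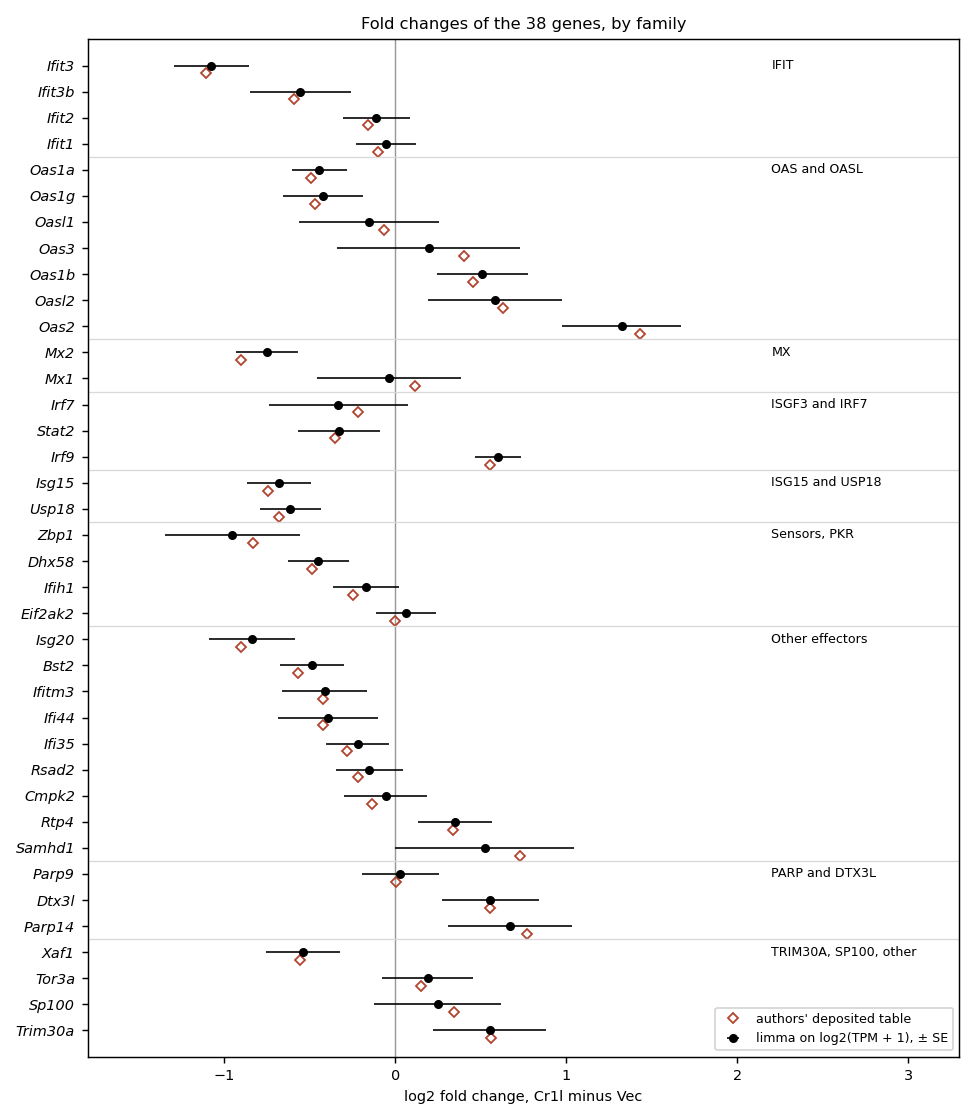
Difference between Cr1l and Vec tumours (log2 fold change, Cr1l minus Vec) for each of the 38 genes, grouped by family; black points are limma estimates on log2(TPM + 1) with bars of 1 SE, and open diamonds are the values of the authors' deposited DESeq2 table. Ifit3 (-1.08) lies farthest to the left and Oas2 (1.32) farthest to the right, and each of the IFIT and OAS families spreads over a wide range.

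The level of the set differed between tumours of the same group. The 38 genes summed to 3616, 3428, 5836 and 4574 TPM in Cr1l 1 to 4, against 5389, 4699 and 6336 TPM in Vec 5 to 7. By this sum, to which Bst2 and Ifitm3 give the most, Cr1l 3 lay within the Vec range and Cr1l 1, Cr1l 2 and Cr1l 4 below it. The median over members of the log2 difference from each gene's 7-tumour mean, which weights the genes equally, was -0.27, -0.33, 0.36 and 0.02 in Cr1l 1 to 4, against 0.21, -0.17 and 0.24 in Vec 5 to 7. By this measure Cr1l 3 lay above the Vec range, Cr1l 4 within it, and Cr1l 1 and Cr1l 2 below it. Cr1l 3 had the highest value of the 7 tumours for 18 members, Vec 7 for 10, Vec 5 for 6, Vec 6 for 3 and Cr1l 4 for 1. The lowest value fell in Cr1l 2 for 14 members, Vec 6 for 12, Cr1l 4 for 6, Cr1l 1 for 3, Vec 5 for 2 and Vec 7 for 1. The log2 SD was larger in Cr1l than in Vec tumours for 27 of the 38 members, with a median of 0.40 in Cr1l tumours and 0.29 in Vec tumours. Cr1l 3 was also the tumour with the highest macrophage, T-cell and fibroblast marker sums, and the part of these cells in its high values was not tested. Leaving out Cr1l 3 and Cr1l 4 brought the median member difference to -0.44 and the number of members lower without overlap to 20, where 12.7% of all tested genes were. In that setting 2 members were higher without overlap, where 22.8% of all tested genes were.

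**Figure D3:**
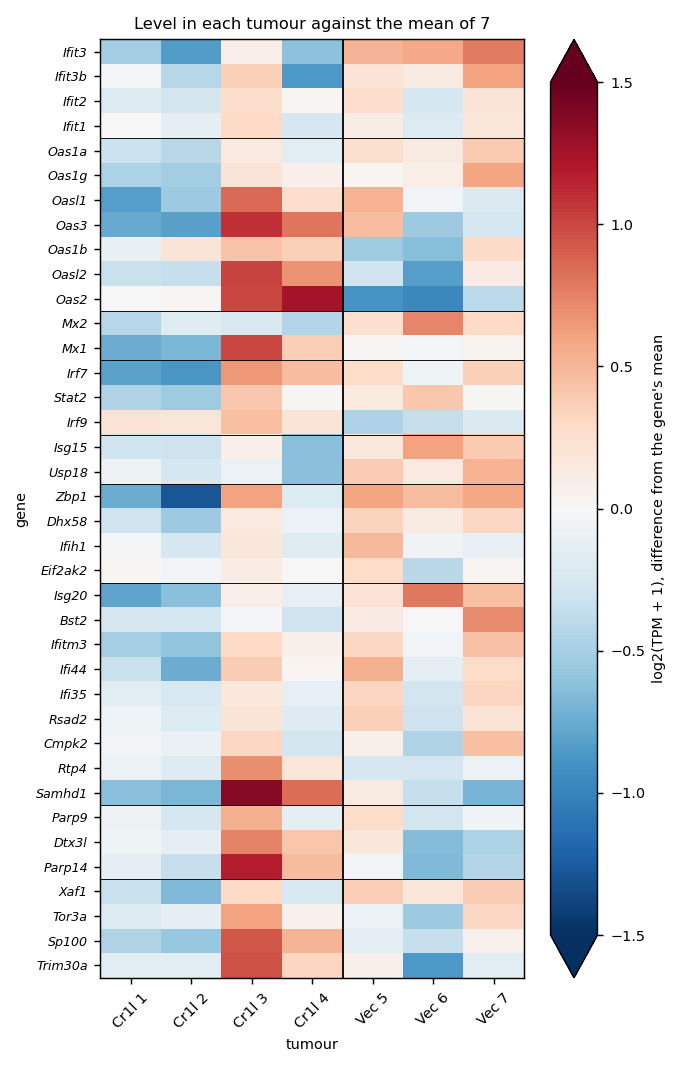
Level of each of the 38 genes (rows, by family) in each tumour (columns), as the difference from the gene's own mean over the 7 tumours in log2(TPM + 1); red is above and blue below that mean. Cr1l 3 is red for Oas, Samhd1, Parp14 and Sp100 rows, Cr1l 1 and Cr1l 2 are blue for most rows, and Ifit3, Mx2 and Isg15 rows are red in all Vec tumours.

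The interferons themselves were at the edge of what the table records. Of 18 type I interferon genes listed, 7 were in the table and none reached a mean of 1 TPM, so none was tested. Ifnb1 was listed at 0.29, 0.00, 0.83 and 0.31 TPM in Cr1l 1 to 4, against 0.17, 0.00 and 0.00 TPM in Vec 5 to 7. Ifng, the type II interferon of T and NK cells, stood at 1.41, 0.81, 6.48 and 2.40 TPM in Cr1l 1 to 4, against 0.43, 1.19 and 0.07 TPM in Vec 5 to 7. The groups overlapped, and the Ifng difference of 1.12 ± 0.52 had an adjusted p of 0.343 in limma.

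Receptor and signalling genes outside the member list were mostly higher in Cr1l tumours. Of 14 listed genes 12 were higher and 2 lower, with a median difference of 0.47, where 8281 of all 14954 tested genes were higher. None passed limma after adjustment, and 3 were higher at an unadjusted p under 0.05, as were 9.49% of all tested genes. Irf2, a repressor of interferon targets, was at 17.3, 14.1, 34.5 and 25.6 TPM in Cr1l 1 to 4, against 15.2, 8.92 and 16.5 TPM in Vec 5 to 7. Irf5, a factor of myeloid cells, was at 8.89, 11.8, 77.1 and 60.4 TPM in Cr1l 1 to 4, against 18.8, 10.4 and 5.62 TPM in Vec 5 to 7. In both, Cr1l 3 and Cr1l 4, the tumours with the highest macrophage and fibroblast marker sums, were highest, and the part of those cells in the list's direction was not tested. Ifnar1, a receptor chain, stood at 32.5, 32.4, 53.2 and 44.3 TPM in Cr1l 1 to 4, against 29.5, 21.0 and 26.7 TPM in Vec 5 to 7. Those groups did not overlap, and the difference was 0.62 ± 0.22 with an adjusted p of 0.265 in limma. Socs1, an inhibitor of Jak kinases, was at 4.39, 4.16, 16.4 and 6.20 TPM in Cr1l 1 to 4, against 2.29, 1.63 and 1.86 TPM in Vec 5 to 7. Its groups were also apart, with a difference of 1.40 ± 0.43 and an adjusted p of 0.238 in limma, and the authors' deposited DESeq2 table called it higher (1.98, adjusted p of 0.00804). Irf3, an interferon-inducing factor, was higher by 0.42 ± 0.18 with overlapping groups (adjusted p of 0.312 in limma).

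The 2 ISGF3 subunits among the members had differences of opposite sign. Irf9, the DNA-binding subunit, stood at 49.2, 48.1, 58.7 and 48.5 TPM in Cr1l 1 to 4, against 30.6, 33.0 and 36.5 TPM in Vec 5 to 7. Every Cr1l tumour was above every Vec tumour, and the difference was 0.60 ± 0.13 with an adjusted p of 0.159 in limma. The authors' deposited DESeq2 table gave 0.55 with an adjusted p of 0.0550, just outside the threshold. Stat2, the partner that carries the activating domain, was at 65.0, 61.3, 118 and 90.0 TPM in Cr1l 1 to 4, against 98.5, 118 and 90.2 TPM in Vec 5 to 7. Its groups overlapped, with Cr1l 1 and Cr1l 2 lowest, and the difference was -0.33 ± 0.24 (adjusted p of 0.510 in limma). The ratio of Irf9 to Stat2 within a tumour was 0.757, 0.785, 0.497 and 0.539 in Cr1l 1 to 4, against 0.310, 0.280 and 0.405 in Vec 5 to 7. All 4 Cr1l ratios were above the 3 Vec ratios; this and the other ratios were picked with the values known and are descriptions without a test. Irf7, the factor that amplifies interferon-α production and is itself a target of ISGF3, was at 54.1, 51.5, 150.2 and 132 TPM in Cr1l 1 to 4, against 116, 91.0 and 123 TPM in Vec 5 to 7. Its Cr1l tumours lay on both sides of the Vec range, and the difference was -0.33 ± 0.41 (adjusted p of 0.694 in limma).

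Within the IFIT family, which binds foreign or incompletely capped RNA, Ifit3 was lower in Cr1l tumours while its neighbours Ifit1 and Ifit2 were near level; all 4 members had a negative difference, with a median of -0.33. Ifit3, which in human cells steadies the complex with IFIT1, was at 70.5, 56.1, 108 and 65.6 TPM in Cr1l 1 to 4, against 143, 149 and 173 TPM in Vec 5 to 7. No Cr1l tumour reached the lowest Vec tumour. The mean was 75.1 ± 22.9 TPM in Cr1l tumours and 155 ± 15.8 TPM in Vec tumours (SD, n = 4 and n = 3), and the difference was -1.08 ± 0.22 with an adjusted p of 0.132 in limma. The authors' deposited DESeq2 table called it lower (-1.11, adjusted p of 0.00621). Ifit1, which binds RNA caps, was at 29.8, 27.1, 36.9 and 24.96 TPM in Cr1l 1 to 4, against 32.3, 25.9 and 34.1 TPM in Vec 5 to 7. Ifit2 was at 29.8, 28.5, 41.8 and 35.4 TPM in Cr1l 1 to 4, against 41.9, 28.6 and 39.7 TPM in Vec 5 to 7. In both genes the groups covered much the same range, with differences of -0.05 ± 0.18 for Ifit1 and -0.11 ± 0.20 for Ifit2 (adjusted p of 0.892 and 0.794 in limma). Ifit3b, the near copy of Ifit3, was at 13.5, 10.0, 17.9 and 7.16 TPM in Cr1l 1 to 4, against 16.1, 15.2 and 21.5 TPM in Vec 5 to 7. Only Cr1l 3 lay within the Vec range, and the difference was -0.56 ± 0.29 (adjusted p of 0.384 in limma).

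Ifit3 and Ifit3b cannot be cleanly told apart from short reads. Of the 31-base words of Ifit3 transcripts, 61.8% also occur in Ifit3b, and 54.1% of those of Ifit3b occur in Ifit3, so the split between them depends on how RSEM shared the reads. Ifit3 and Ifit1 share 0 such words, so their annotated transcripts have no stretch of that length in common. The ratio of Ifit3 to Ifit1 within a tumour was 2.36, 2.07, 2.94 and 2.63 in Cr1l 1 to 4, against 4.44, 5.77 and 5.08 in Vec 5 to 7. The ratio of Ifit3 to Ifit2 was 2.36, 1.97, 2.59 and 1.85 in Cr1l 1 to 4, against 3.42, 5.23 and 4.36 in Vec 5 to 7. Both ratios were lower in every Cr1l tumour than in every Vec tumour, Cr1l 3 and Cr1l 4 included. In the windows held for Ifit2 there was no ISRE match. The windows printed for Ifit3 and Ifit1 hold the same pair of ISRE words (TTTCACTTTC and TTTCAGTTTC on the strand of the gene).

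**Figure D4:**
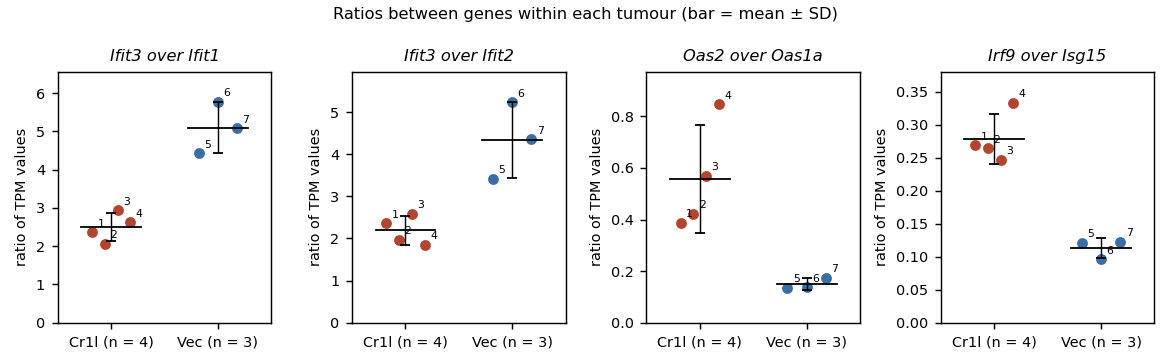
Ratio of the TPM values of 2 genes within each tumour, for Ifit3 over Ifit1, Ifit3 over Ifit2, Oas2 over Oas1a and Irf9 over Isg15, with Cr1l tumours left and Vec tumours right; points are tumours with their numbers and bars the mean ± SD. In all 4 panels no Cr1l tumour overlaps a Vec tumour, with Ifit3 over Ifit1 between 2.07 and 2.94 in Cr1l tumours and between 4.44 and 5.77 in Vec tumours. For Irf9 over Isg15 the separation follows from the separate ranges of the 2 genes.

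The OAS family, enzymes that answer double-stranded RNA by making oligoadenylates for RNase L, was split between higher and lower members. Of 7 genes 4 were higher and 3 lower in Cr1l tumours, with a median difference of 0.19. That median depended on which tumours were kept, and it lay between -0.14 and 0.49 as each tumour was left out. It was negative without Cr1l 3 (-0.14), Cr1l 4 (-0.04) or Vec 6 (-0.02), and -0.63 without both Cr1l 3 and Cr1l 4. Oas2, a large form of the enzyme, was at 24.3, 24.8, 49.7 and 59.1 TPM in Cr1l 1 to 4, against 12.6, 12.0 and 18.1 TPM in Vec 5 to 7. All Cr1l tumours were above all Vec tumours, and Cr1l 3 and Cr1l 4 were the highest. The difference was 1.32 ± 0.35 with an adjusted p of 0.213 in limma, and the authors' deposited DESeq2 table called it higher (1.43, adjusted p of 0.0129). Oas1a, a small form, was at 62.6, 58.7, 87.1 and 69.8 TPM in Cr1l 1 to 4, against 92.7, 86.7 and 103 TPM in Vec 5 to 7. Cr1l 3 passed the lowest Vec tumour by a small margin and the others lay below, with a difference of -0.45 ± 0.16 (adjusted p of 0.271 in limma). Oas1g was at 34.9, 33.8, 56.2 and 51.5 TPM in Cr1l 1 to 4, against 49.8, 52.6 and 74.5 TPM in Vec 5 to 7, with overlapping groups and a difference of -0.42 ± 0.24. Oas1a shares 68.7% of its 31-base words with Oas1g, and Oas1g 54.6% of its words with Oas1a, so the values of this pair are uncertain. Oas1a and Oas2 share 0 words. The ratio of Oas2 to Oas1a was 0.388, 0.422, 0.570 and 0.848 in Cr1l 1 to 4, against 0.136, 0.138 and 0.175 in Vec 5 to 7, again without overlap.

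The other OAS genes had overlapping groups. Oas3 was at 6.48, 6.14, 26.0 and 20.9 TPM in Cr1l 1 to 4, against 16.4, 7.63 and 9.54 TPM in Vec 5 to 7. Oasl2, a ubiquitin-like relative, was at 70.4, 70.0, 182 and 143 TPM in Cr1l 1 to 4, against 72.4, 50.0 and 97.4 TPM in Vec 5 to 7. In both genes Cr1l 3 and Cr1l 4 were above all Vec tumours, while Cr1l 1 and Cr1l 2 were below (Oas3) or among them (Oasl2), and the differences of 0.19 ± 0.54 and 0.58 ± 0.39 had adjusted p-values of 0.873 and 0.477 in limma. Oasl1, which in mice represses translation of Irf7, was at 11.2, 13.9, 38.3 and 24.97 TPM in Cr1l 1 to 4, against 30.2, 20.1 and 17.6 TPM in Vec 5 to 7 (-0.15 ± 0.41). Oas1b, the flavivirus resistance gene that is truncated in C57BL/6 and most other laboratory strains, was at 9.48, 12.0, 14.3 and 13.5 TPM in Cr1l 1 to 4, against 6.84, 6.29 and 12.8 TPM in Vec 5 to 7 (0.51 ± 0.27). Vec 7 lay within the Cr1l range for Oas1b and the other Vec tumours below it.

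**Figure D5:**
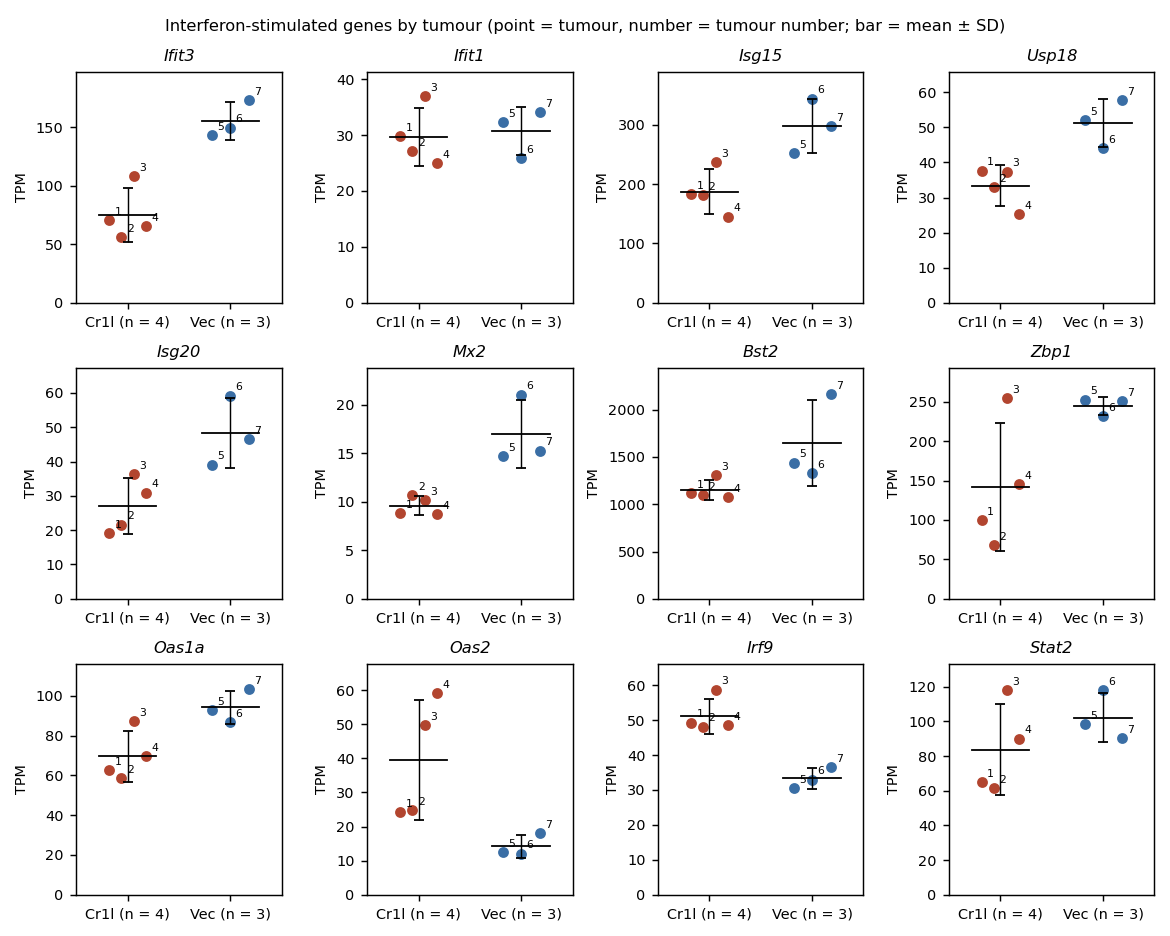
TPM of 12 of the 38 genes in each tumour, with Cr1l tumours left and Vec tumours right; points are tumours with their numbers, horizontal lines the means and bars the SD. Ifit3, Isg15, Usp18, Isg20, Mx2 and Bst2 are lower and Oas2 and Irf9 higher in all Cr1l than in all Vec tumours, while Ifit1, Zbp1, Oas1a and Stat2 overlap.

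The Mx GTPases, which trap viral ribonucleoproteins, differed from each other. Mx2 was at 8.85, 10.7, 10.2 and 8.73 TPM in Cr1l 1 to 4, against 14.7, 21.0 and 15.3 TPM in Vec 5 to 7. The Cr1l values were close together and all below the Vec values, also in Cr1l 3. The difference was -0.75 ± 0.18 with an adjusted p of 0.179 in limma, and the authors' deposited DESeq2 table called it lower (-0.90, adjusted p of 0.0183). Mx1, whose protein is defective in C57BL/6 mice, was at 7.65, 7.99, 27.9 and 17.6 TPM in Cr1l 1 to 4, against 13.7, 13.3 and 14.1 TPM in Vec 5 to 7. The Cr1l tumours lay on both sides of the narrow Vec range (-0.04 ± 0.42). Transcripts of Mx1 share 7.22% of their 31-base words with Mx2.

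Isg15 and the enzyme that removes it were both lower in every Cr1l tumour. Isg15, a ubiquitin-like modifier, was at 183, 182, 237 and 145 TPM in Cr1l 1 to 4, against 252, 344 and 297 TPM in Vec 5 to 7. Usp18, the Isg15 protease that also damps IFNAR signalling, was at 37.7, 33.0, 37.4 and 25.3 TPM in Cr1l 1 to 4, against 52.1, 44.1 and 57.7 TPM in Vec 5 to 7. Neither gene had overlapping groups, and in both genes Cr1l 4 was the lowest tumour. The differences were -0.68 ± 0.19 for Isg15 and -0.61 ± 0.18 for Usp18, with adjusted p-values of 0.220 and 0.226 in limma. In the authors' deposited DESeq2 table Usp18 was called lower (-0.68, adjusted p of 0.0279) and Isg15 missed the threshold (-0.75, adjusted p of 0.0589). The ratio of Irf9 to Isg15 was 0.269, 0.265, 0.247 and 0.334 in Cr1l 1 to 4, against 0.121, 0.0960 and 0.123 in Vec 5 to 7. These ratios had to lie apart, because Irf9 was higher and Isg15 lower in every Cr1l than in every Vec tumour. They add no result beyond those of the 2 genes.

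The sensors were lower on average in 3 of 4 cases. Zbp1, which binds Z-form nucleic acids and can start necroptosis, was at 99.4, 68.1, 255 and 145 TPM in Cr1l 1 to 4, against 253, 232 and 251 TPM in Vec 5 to 7. Cr1l 3 stood at the Vec level and the other Cr1l tumours far below it, and the difference was -0.95 ± 0.39 (adjusted p of 0.308 in limma). Dhx58, which encodes LGP2, a regulator of RNA sensing, was at 37.3, 31.1, 51.1 and 43.3 TPM in Cr1l 1 to 4, against 58.0, 50.4 and 57.1 TPM in Vec 5 to 7. Again Cr1l 3 alone reached the Vec range (-0.45 ± 0.18, adjusted p of 0.301 in limma). Ifih1, which encodes the long-RNA sensor MDA5, averaged 25.7 ± 3.53 TPM in Cr1l tumours and 29.4 ± 7.40 TPM in Vec tumours (SD, n = 4 and n = 3). Eif2ak2, which encodes the translation-blocking kinase PKR, was at 32.1, 30.5, 34.1 and 31.6 TPM in Cr1l 1 to 4, against 38.2, 23.4 and 32.1 TPM in Vec 5 to 7. Its Cr1l tumours lay within the Vec range, and the difference was 0.06 ± 0.18 (adjusted p of 0.874 in limma).

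Of 9 other antiviral effectors, 7 were lower and 2 higher in Cr1l tumours. Isg20, an RNA exonuclease, was at 19.2, 21.5, 36.4 and 30.96 TPM in Cr1l 1 to 4, against 39.1, 59.2 and 46.5 TPM in Vec 5 to 7. Bst2 (tetherin), which holds budding virus at the cell surface, was at 1115, 1099, 1310.3 and 1075 TPM in Cr1l 1 to 4, against 1437, 1328 and 2164 TPM in Vec 5 to 7. In both genes all Cr1l tumours lay below all Vec tumours, by a small margin between Cr1l 3 and the lowest Vec tumour. The differences were -0.84 ± 0.25 for Isg20 and -0.49 ± 0.19 for Bst2, with adjusted p-values of 0.234 and 0.291 in limma. Bst2 also marks plasmacytoid dendritic cells. The other 7 markers of that cell type summed to between 32.6 and 79.9 TPM in Cr1l tumours, against between 28.3 and 132 TPM in Vec tumours. Of the 132 TPM, in Vec 6, Ly6d gave 78.1 TPM and Cox6a2 27.6 TPM. The mean was higher in Cr1l tumours for 5 of the 7 markers, among them Siglech (1.77 TPM in Cr1l tumours, against 0.29 TPM in Vec tumours). The part of those cells in the Bst2 level was not tested. Ifitm3, which blocks virus entry by membrane fusion, was at 964, 908, 1679 and 1437 TPM in Cr1l 1 to 4, against 1692, 1321 and 1852 TPM in Vec 5 to 7. Cr1l 1 and Cr1l 2 lay below the Vec range and Cr1l 3 and Cr1l 4 within it (-0.41 ± 0.25, adjusted p of 0.432 in limma).

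The remaining effectors had overlapping groups. Rsad2 (viperin), which makes a chain-ending nucleotide, and its chromosomal neighbour Cmpk2, a mitochondrial nucleotide kinase, differed little. Rsad2 averaged 31.5 ± 4.40 TPM in Cr1l tumours and 35.6 ± 8.28 TPM in Vec tumours, and Cmpk2 22.5 ± 4.21 TPM in Cr1l tumours and 24.0 ± 7.55 TPM in Vec tumours (SD, n = 4 and n = 3). Ifi35 and Ifi44 differed by -0.22 ± 0.19 and -0.39 ± 0.29. Samhd1, which breaks down deoxynucleotides and is abundant in myeloid cells, was at 78.7, 75.9, 317 and 219 TPM in Cr1l 1 to 4, against 135, 96.4 and 75.2 TPM in Vec 5 to 7. It was high in Cr1l 3 and Cr1l 4, the tumours with the highest macrophage marker sums, and the part of macrophages in its level was not tested. Rtp4, a receptor-transporting protein, was at 64.4, 59.7, 111 and 77.8 TPM in Cr1l 1 to 4, against 57.2, 57.5 and 64.2 TPM in Vec 5 to 7, and was higher on average by 0.35 ± 0.22 (adjusted p of 0.444 in limma).

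The 3 members of the PARP and DTX3L group had positive differences and overlapping groups. Parp14, a mono-ADP-ribosyltransferase, was at 23.4, 20.3, 59.9 and 36.5 TPM in Cr1l 1 to 4, against 25.2, 16.1 and 18.9 TPM in Vec 5 to 7. Dtx3l, a ubiquitin ligase, was at 19.4, 18.5, 34.8 and 27.5 TPM in Cr1l 1 to 4, against 23.0, 12.6 and 14.4 TPM in Vec 5 to 7. Cr1l 3 and Cr1l 4 were the highest tumours for both genes, and the differences of 0.67 ± 0.36 for Parp14 and 0.56 ± 0.28 for Dtx3l had adjusted p-values of 0.393 and 0.372 in limma. Parp9, the binding partner of Dtx3l, was at 42.3, 37.3, 65.3 and 40.1 TPM in Cr1l 1 to 4, against 54.1, 36.8 and 43.1 TPM in Vec 5 to 7, with overlapping groups (0.03 ± 0.23).

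Among the last 4 members, Xaf1, a partner of the apoptosis inhibitor XIAP, was at 58.1, 46.3, 91.0 and 62.4 TPM in Cr1l 1 to 4, against 95.1, 83.5 and 96.3 TPM in Vec 5 to 7. Only Cr1l 3 reached the Vec range (-0.54 ± 0.22, adjusted p of 0.301 in limma). Sp100, a nuclear body protein, was at 52.7, 48.4, 139 and 103 TPM in Cr1l 1 to 4, against 65.6, 56.9 and 75.5 TPM in Vec 5 to 7. Trim30a, which in mice restrains Toll-like receptor signalling, was at 39.3, 39.9, 87.0 and 55.6 TPM in Cr1l 1 to 4, against 46.7, 24.0 and 39.8 TPM in Vec 5 to 7. Both were highest in Cr1l 3 and Cr1l 4, with differences of 0.25 ± 0.37 for Sp100 and 0.55 ± 0.33 for Trim30a. Tor3a, a torsin-family ATPase, differed by 0.19 ± 0.27.

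Interferon-stimulated genes outside the 38 also went both ways, with more of them higher. Of 51 tested genes from a further list, 35 were higher and 16 lower in Cr1l tumours, with a median difference of 0.27; none passed limma after adjustment, 7 were higher and 7 lower at an unadjusted p under 0.05 (9.49% and 6.07% of all tested genes). In each direction 5 had groups without overlap (9.80%, against 9.29% of all tested genes higher and 6.67% lower). The lower ones without overlap were Apol9a, Apol9b, Ube2l6, Nmi and Parp10, and the higher ones Slfn1, Trim12c, Trim34a, Helz2 and Znfx1. Apol9b, an apolipoprotein L family gene, was at 109, 87.1, 111 and 80.2 TPM in Cr1l 1 to 4, against 222, 206 and 242 TPM in Vec 5 to 7. The difference of -1.21 ± 0.15 had the smallest adjusted p of the list, 0.0602 in limma, and the authors' deposited DESeq2 table called it lower with an adjusted p of 9.62e-08. Apol9a, whose transcripts share 20.2% of their 31-base words with Apol9b and hold 64.9% of those of Apol9b, differed by -1.11 ± 0.15. Ube2l6, the conjugating enzyme for Isg15, was at 99.9, 78.6, 144 and 98.1 TPM in Cr1l 1 to 4, against 184, 178 and 196 TPM in Vec 5 to 7. Nmi, the binding partner of Ifi35, differed by -0.68 ± 0.16 and was called lower in the authors' deposited DESeq2 table (adjusted p of 0.0111). Over all genes of that table, 2.27% were called lower and 4.74% higher. Among the 52 genes of the list with an adjusted p there, it called 4 lower (Apol9a, Apol9b, Ube2l6 and Nmi) and 4 higher. The higher ones were Slfn1 (2.81, adjusted p of 0.00827), Slfn5 (3.02, 0.00567), Ifi206 (2.70, 0.0130) and Ifi209 (2.33, 0.0254) in the authors' deposited DESeq2 table. Slfn5 was at 9.29, 12.3, 76.3 and 60.8 TPM in Cr1l 1 to 4, against 10.2, 3.00 and 1.62 TPM in Vec 5 to 7, so its high values were those of Cr1l 3 and Cr1l 4. Slfn1 was at 4.88, 5.13, 44.3 and 33.0 TPM in Cr1l 1 to 4, against 4.71, 2.50 and 2.05 TPM in Vec 5 to 7. Ifi206 and Ifi209 were likewise highest in Cr1l 3 and Cr1l 4, and in both genes Cr1l 1 lay below Vec 5. The part of macrophages in these values was not tested.

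Nucleic acid sensing genes were mostly higher in Cr1l tumours. Of 16 listed genes 15 were higher and 1 lower, with a median difference of 0.51, where 8281 of all 14954 tested genes were higher. None passed limma after adjustment, and 2 were higher without overlap (12.5%, against 9.29% of all tested genes). The sensors Zbp1, Dhx58 and Ifih1 among the 38 members were lower on average. Tlr9, a receptor for DNA, was at 1.64, 1.86, 18.3 and 10.7 TPM in Cr1l 1 to 4, against 2.67, 0.66 and 0.40 TPM in Vec 5 to 7, and was called higher in the authors' deposited DESeq2 table (adjusted p of 0.0329). Unc93b1, its chaperone, was at 45.7, 55.9, 235 and 221 TPM in Cr1l 1 to 4, against 79.5, 48.8 and 32.8 TPM in Vec 5 to 7. Both were high in Cr1l 3 and Cr1l 4, which also had the highest macrophage marker sums, and the part of macrophages in these values was not tested. Rigi, the RNA sensor RIG-I, was at 30.6, 33.9, 40.2 and 31.03 TPM in Cr1l 1 to 4, against 24.1, 20.8 and 24.8 TPM in Vec 5 to 7. Its groups did not overlap, and the difference was 0.53 ± 0.15 with an adjusted p of 0.225 in limma. Ikbke, an interferon-inducing kinase, also had every Cr1l tumour above every Vec tumour (0.70 ± 0.32, adjusted p of 0.339 in limma). It was at 19.2, 19.9, 44.3 and 41.6 TPM in Cr1l 1 to 4, against 17.9, 17.2 and 17.4 TPM in Vec 5 to 7. Cr1l 1 and Cr1l 2 thus exceeded the Vec tumours by a small margin, and the part of macrophages in the Ikbke level was not tested. Genes best known for the answer to interferon-γ were mixed. Of 21 interferon-inducible GTPase genes, 9 were higher and 12 lower, with a median of -0.14 and 0 without overlap; of 20 other interferon-γ targets, 7 were higher and 13 lower, with a median of -0.38. In that second list Cxcl11 (a T-cell chemokine), B2m (the light chain of MHC class I) and Psmb10 (an immunoproteasome subunit) were lower in every Cr1l than in every Vec tumour (3 of the 20 genes, against 6.67% of all tested genes). Nos2, the inducible nitric oxide synthase, had a difference of 2.25 ± 0.72 with overlapping groups (adjusted p of 0.244 in limma) and was called higher in the authors' deposited DESeq2 table (adjusted p of 0.0171). Of the 20 genes, that DESeq2 table called 1 higher and 2 lower, Cxcl11 (-0.85, adjusted p of 0.0110) and Psmb10 (-1.15, 0.0430). Over all its genes, 2.27% were called lower and 4.74% higher. Psmb10 was at 198, 175, 464 and 225 TPM in Cr1l 1 to 4, against 521, 532 and 657 TPM in Vec 5 to 7, with a difference of -1.20 ± 0.32 (adjusted p of 0.215 in limma).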

How the data were processed

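Poly-A RNA of 7 whole tumours was measured. The labels give each tumour's group and number. Libraries were non-directional, per the labels' protocols, so antisense reads count with the gene they overlap. RSEM, DESeq2 and mm39 are named in the submitters' processing notes, without versions; no aligner or annotation is named there. The authors deposited log2(TPM + 1) per gene and tumour, shown here as TPM; no count test can be run on it. In the authors' deposited DESeq2 table each Ensembl identifier has a mean normalized count (a signal averaged over tumours), a log2 fold change and a p-value. Of its 28369 identifiers, 27182 matched a symbol in a GRCm38 name table, the 38 members included. Cr1l was taken as its numerator, from the sign of Cr1l itself and a Pearson r of 0.879 with the TPM differences across 14266 genes, which are not independent replicates.

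The linear model of limma 3.58.1 (R 4.3.3, variance trend, two-sided) was run on log2(TPM + 1) of the 14954 genes averaging 1 TPM or more, with Benjamini-Hochberg adjustment over all of them and a threshold of 0.05. Differences are Cr1l minus Vec and understate changes of low genes. The fit was tested on simulated data with independent normal noise of the same spread in every gene. Shared shifts of tumours, as in Cr1l 3 and Cr1l 4, were not simulated. The simulation checks that known changes are recovered and not the p-values given here. Members and lists were chosen with earlier results of these data known, so no test over a list was made. Values per tumour are given for members with an unadjusted p under 0.05 or without overlap and for the most abundant of each family, and for others where space allowed. Of the other lists, up to 4 genes with the smallest p and those without overlap could be named; Ifnb1, Irf5, Unc93b1, Slfn5, Ifi206 and Ifi209 were added after their values were seen. An item withheld for evaluation is not reported here. Shared words were counted in GENCODE M21 transcripts. The repertoire table was not used here. Alternatives covered the pseudocount, filters, scaling, weights, variance trend, the authors' table and tumours left out. Figures were drawn with matplotlib 3.10.9.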

Additional observations from a re-analysis of the deposited data

Results flagged for a closer look

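Irf9 in Cr1l 3, at 58.7 TPM, lay above the other 3 Cr1l tumours, which were close together (between 48.1 and 49.2 TPM). The next highest, Cr1l 1, was at 49.2 TPM, and on the log2 scale the gap made up 0.886 of the range of the 4 Cr1l tumours and exceeded Dixon's critical value for 4 samples. It was 1 flag among 38 genes tested in groups of 4, and chance gives a flag in about 0.05 of groups. Cr1l 3 was the highest of the 7 tumours for 18 members and had the highest macrophage marker sum, 6119 TPM, against 523 to 1666 TPM in Vec tumours. Its part in the Irf9 value was not tested. Without Cr1l 3 the remaining Cr1l values of Irf9, between 48.1 and 49.2 TPM, still lay above the Vec values, between 30.6 and 36.5 TPM.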

How the results depend on the processing

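No paired analysis was possible because the tumour numbers 1 to 7 are shared by no pair of Cr1l and Vec tumours. Over 16 alternatives, no member passed the threshold in limma (smallest adjusted p 0.0683, for Ifit3), while 4 did in the authors' deposited DESeq2 table. Of the 38 members 26 kept their sign throughout, 19 as lower (among them Ifit3, Mx2, Isg15, Usp18, Isg20 and Bst2) and 7 as higher (Oas1b, Oas2, Irf9, Rtp4, Parp14, Dtx3l and Trim30a). The number of genes passing among all tested, 2 in the analysis as reported, was 6 with a pseudocount of 0.1, 0 with no filter on low values, 1 with a filter at 5 TPM, 10 with median-of-ratios scaling, 4 with globin, mitochondrial and immunoglobulin genes left out, 14 with arrayWeights (which gave a convergence warning), 13 with no variance trend, 6 without Vec 6 and Vec 7, 0 without Cr1l 3 and Cr1l 4, and between 0 and 7 with 1 tumour left out.

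Members lower without overlap numbered between 6 and 12 with 1 tumour left out: 12 without Cr1l 3 (8.89% of all tested genes) and 12 without Vec 6 (12.1%). They numbered 16 without Vec 6 and Vec 7 (26.4%), where the lone Vec tumour is assumed to vary like the others, and 20 without Cr1l 3 and Cr1l 4 (12.7%). Members higher without overlap numbered between 2 and 4 with 1 tumour left out (4 without Vec 5, where 18.1% of all tested genes were, and 4 without Vec 7, 14.1%), and 4 without Vec 6 and Vec 7 (20.1%). Fewer tumours make separation easier by construction. Without Cr1l 3 and Cr1l 4 the median member difference was -0.44 and the OAS median -0.63; the OAS median was -0.091 with arrayWeights and -0.21 without Vec 6 and Vec 7.

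The other 12 members turned sign at least 1 time; the cause was not tested. Oas3 gave -0.091 with arrayWeights, -0.38 without Vec 6 and Vec 7 and -0.67 without Cr1l 3 and Cr1l 4. Parp9 gave -0.016 with median-of-ratios scaling, -0.057 with arrayWeights, -0.26 without Vec 6 and Vec 7 and -0.15 without Cr1l 3 and Cr1l 4. Without Vec 6 and Vec 7 Eif2ak2 gave -0.25. Without Cr1l 3 and Cr1l 4, Oasl2 gave -0.0097, Samhd1 -0.36, Sp100 -0.37 and Tor3a -0.064. With 1 tumour left out, Ifit1 ranged from -0.17 to 0.023, Mx1 ranged from -0.38 to 0.20, Oas3 ranged from -0.14 to 0.49, Oasl1 ranged from -0.46 to 0.10, Ifih1 ranged from -0.29 to 0.017, Cmpk2 ranged from -0.30 to 0.15, Parp9 ranged from -0.14 to 0.17, Eif2ak2 ranged from -0.12 to 0.22, Sp100 ranged from -0.030 to 0.47 and Tor3a ranged from -0.030 to 0.39.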

Other observations

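The spread over the 7 tumours, without regard to group, differed between members. Ifit2 and Ifit1 were the most even, with a highest tumour 1.47 and 1.48 times the lowest, followed by Ifi35 at 1.52 times. Oas2 was the least even at 4.93 times, before Oas3 at 4.23 times and Samhd1 at 4.22 times. In Eif2ak2 the log2 SD was 0.07 in Cr1l tumours, against 0.35 in Vec tumours, whereas in Zbp1 it was 0.81 in Cr1l tumours, against 0.07 in Vec tumours, and in Mx1 0.85 in Cr1l tumours, against 0.04 in Vec tumours.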
